A study of Mus musculus with 2 samples.

Results

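The genes described here are 52 mouse genes of the muscle sarcomere, 1 list chosen by name from the 43346 genes in the deposited tables. They code for myosin heavy and light chains, striated muscle actins, troponins, titin, nebulin and proteins of the Z-disc and M-band, and tropomyosins are left out. The tissue was limb of B6NCrl mouse embryos of embryonic day 13.5 (E13.5), with both sexes pooled, and total RNA above 200 nt was sequenced from 10 ng per library with added spike-in transcripts. There was 1 group of 2 libraries, E13.5 limb, which the labels number as biological replicates 1 and 2 and trace to different biosamples under a common donor entry. Nothing further says that the biosamples were independent, so the spread between the libraries may be partly technical. The labels name no genotype other than the strain and no treatment, and no condition was compared. The questions put to the data were which sarcomere genes the limb expressed, which paralog and which transcript led in each family, and whether the order exceeded the spread between the libraries.

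The sarcomere is the contractile unit of striated muscle, in which myosin thick filaments pull on actin thin filaments anchored at the Z-disc. Most of its proteins exist as paralogs that are used in turn during development, with embryonic, perinatal and adult myosins as the classical series, and with slow, fast and cardiac types of the troponins and light chains. Alternative splicing adds fetal and adult forms of the same gene. In the mouse limb at this age the first fibres have formed from migrated precursors and muscle masses are being laid down.

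Replicate 1 held 31927117 expected counts and replicate 2 held 43194518, and edgeR's common biological coefficient of variation between them was 5.19%. All 12 skeletal muscle markers outside the list reached 1 TPM (the deposited length-scaled transcript level) in both libraries, led by Myog at 142 and 158 TPM in replicates 1 and 2, Myod1 at 49.3 and 58.0 TPM and Mef2c at 40.5 and 44.6 TPM, with Myf6 lowest at 1.17 and 1.73 TPM. Of 9 heart markers 2 reached that level. These were Sln (113 and 127 TPM), which codes for the calcium pump regulator sarcolipin and is also expressed in skeletal muscle, and Irx4 (5.80 and 6.34 TPM). The cardiac factor gene Nkx2-5 and the natriuretic peptide gene Nppb had 0 TPM in both libraries. Smooth muscle markers were detected for 5 of 8 genes, with Acta2 highest at 231 and 232 TPM, then Smtn at 48.1 and 53.1 TPM and Tagln at 14.2 and 13.1 TPM, and Myh11, the smooth muscle myosin, was lowest at 0.28 and 0.32 TPM. Neuronal markers reached 1 TPM for 2 of 4 genes, with summed levels of 10.5 and 8.20 TPM. The 3 liver markers summed to 35.8 TPM in replicate 1 and 4.95 TPM in replicate 2. The part of these other tissues in the levels of the sarcomere genes was not tested. In whole limb tissue, fewer muscle cells and less RNA per muscle cell cannot be told apart.

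Of the 52 sarcomere genes 43 reached 1 TPM in both libraries, where 34.6% of all genes in the tables did so. Together they summed to 3547 TPM in replicate 1 and 3624 TPM in replicate 2, which is 0.355% and 0.362% of the library total. Their levels covered a wide range. At least 100 TPM in the mean was held by 10 genes, between 10 and 100 TPM by 20, between 1 and 10 TPM by 13, and under 1 TPM by 9. The median of the 43 detected genes was 22.5 TPM, beside 17.2 TPM over the 14986 genes detected in all.

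**Figure D1:**
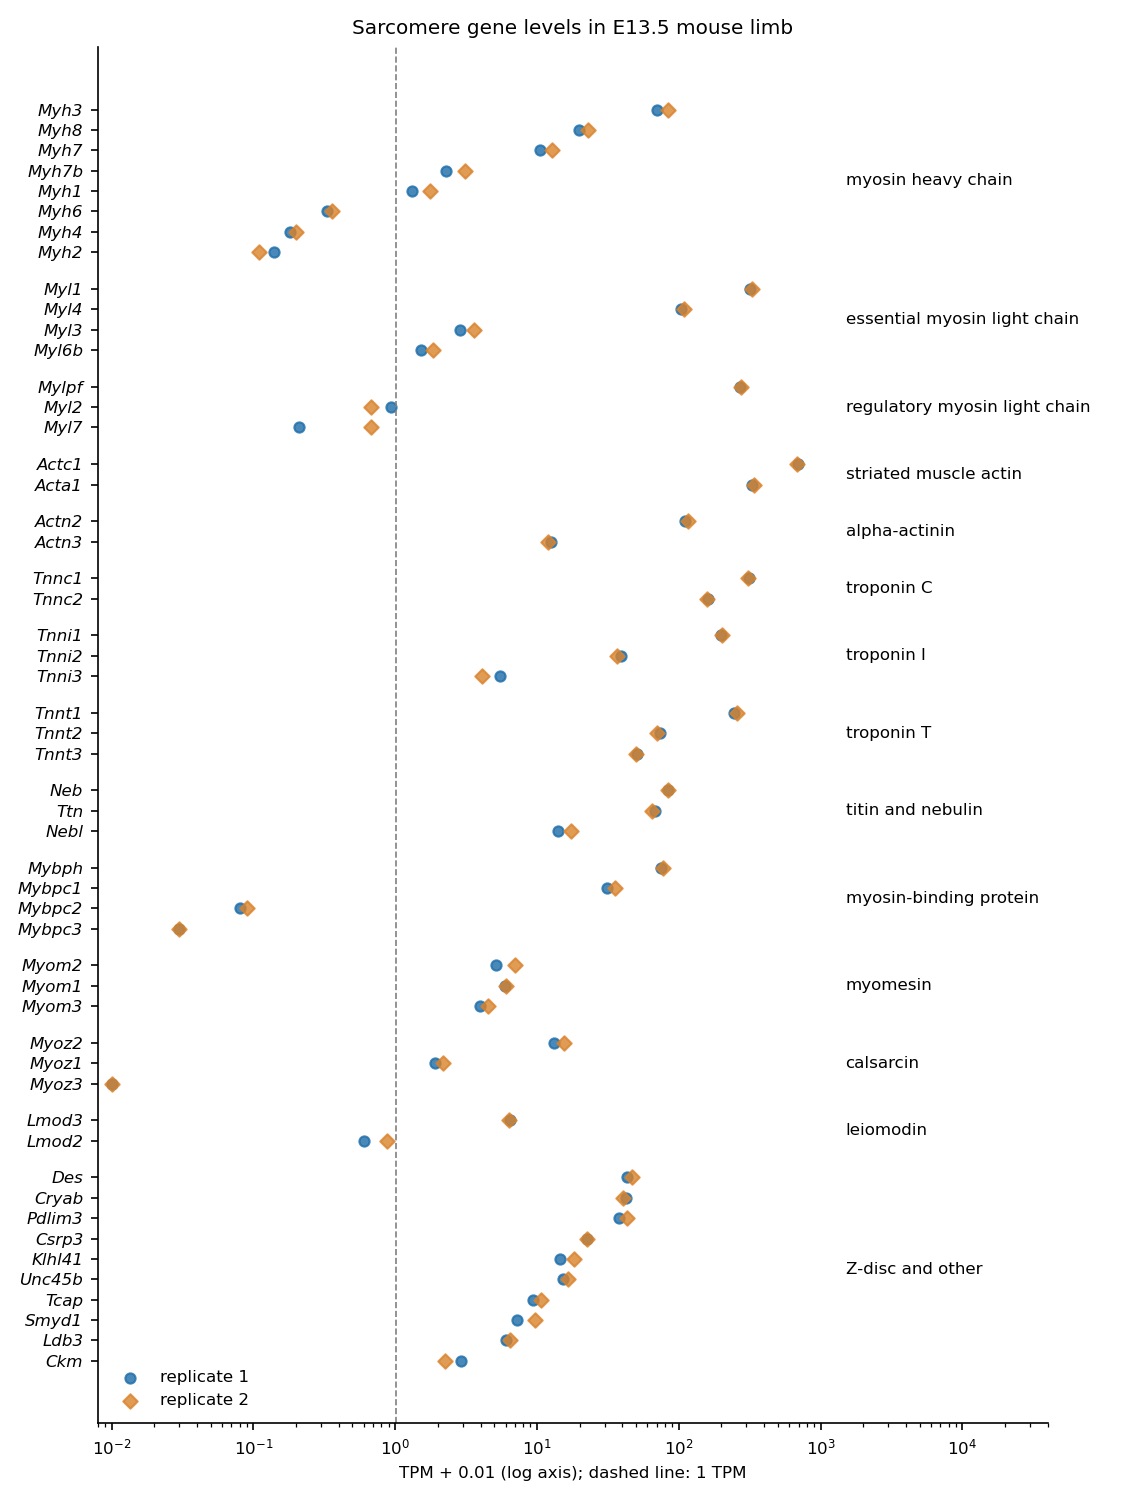
Level of each of the 52 sarcomere genes by library, as TPM + 0.01 on a log axis, grouped by family and ordered by mean level within each family. Circles are replicate 1 and diamonds replicate 2, the dashed line marks 1 TPM, and 9 genes lie to its left in the mean, with Myoz3 at 0 in both libraries.

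The libraries held nearly equal levels of these genes. Among the 47 with a mean of 10 scaled counts or more, 1 differed by over 2-fold between replicates 1 and 2, where 2.38% of all genes with such counts did. The same gene, the adult fast myosin Myh2, was the single one of 47 over 1.5-fold apart, beside 7.23% of all genes, and it rested on 15.4 and 9.82 expected counts. The median log2 ratio of replicate 1 over replicate 2 was -0.05 for the 47 genes and -0.00 for all genes. Replicate 1 was higher for 17 of the 47 genes and for 49.6% of all genes.

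The myosin heavy chains, the motor proteins of the thick filament, were led by the embryonic form. Myh3, at chr11:67078300-67102291 on the plus strand in GRCm38, had 70.5 TPM in replicate 1 and 84.4 TPM in replicate 2, which was 67.1% and 67.3% of the summed level of the 8 heavy chains. The perinatal Myh8 had 19.8 and 22.9 TPM (18.9% and 18.2%). The slow and cardiac beta form Myh7 had 10.56 and 12.7 TPM (10.1% and 10.1%). Replicate 2 was higher for each of these, while the shares stayed within 1 percentage point of each other. Myh7b, a further slow-type heavy chain, had 2.26 and 3.10 TPM, and the adult fast IIx form Myh1 had 1.30 and 1.76 TPM. The remaining 3 were under 1 TPM in both libraries, the cardiac alpha form Myh6 at 0.320 and 0.350, the adult fast IIb form Myh4 at 0.170 and 0.190 and the adult fast IIa form Myh2 at 0.13 and 0.10 TPM. In Myh7b a transcript with a retained intron, Myh7b-203, held 47.05% and 51.82% of the gene's TPM. Myh7b-203 is 674 nt long and held 8.65% and 9.26% of the gene's expected counts. The coding Myh7b-201 held 90.2% and 90.7% of them. The exons of Myh7b share 37 bases with the opposite-strand gene Trpc4ap, which had 125 and 134 TPM.

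The order within the heavy chains was compared with the replicate error by a fixed rule. A ratio of TPM + 0.1 between 2 genes was called past the spread when both libraries had the same sign and the mean log2 ratio exceeded 2 times the combined replicate SD of the 500 genes closest in level to each gene. With 2 libraries of 1 group no permutation test is possible. All 11 pairs taken among the heavy chains were past it. The narrowest was Myh8 over Myh7, with a log2 ratio of 0.87 (combined SD 0.18, 1.83-fold). By expected counts + 0.5 in place of TPM this ratio was 0.87 as well but not past the spread of that scale. Myh3 over Myh1, the highest of the adult fast genes, had a log2 ratio of 5.58 (combined SD 0.35, 47.8-fold), and of 4.95 (31.0-fold) with 1 TPM added in place of 0.1. The ratio of Myh7 over its neighbour Myh6 was 4.75 on the log2 scale (combined SD 0.99), and that of Myh7 over Myh7b was 2.09 (combined SD 0.34). Both sizes depended on the scale while the calls held. Myh7 over Myh6 was 3.23 with 1 TPM added and 3.54 by posterior mean TPM, and Myh7 over Myh7b was 3.05 by expected counts. Over all families the rule was met by 35 of 40 pairs, and by 31 on the scale of expected counts. Those counts were neither divided by transcript length nor scaled for library size, so the spread of that scale includes the difference in depth. How often other pairs of genes meet the rule was not measured, so the 35 do not set these pairs apart. The gene written first was the higher one in 31 of the 35 and the lower one in 4.

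The skeletal heavy chain genes lie in a row on chromosome 11. Along the plus strand the order is Myh3, Myh2, Myh1, Myh4, Myh8 and Myh13, and in this row the high genes were the first and the fifth. The 3 adult fast genes between them had 0.13 and 0.10 TPM (Myh2), 1.30 and 1.76 TPM (Myh1) and 0.170 and 0.190 TPM (Myh4), and Myh13 after Myh8 had 0.210 and 0.320 TPM. Myh6 and Myh7 lie 3.76 kb apart on chromosome 14, and Myh7 held the higher level. Reads were divided among near-identical heavy chains by the authors' model, and the deposited posterior SD of the count came to 10.5% and 10.59% of the count for Myh2 and 6.18% and 4.59% for Myh6, but to 0.00978% and 0.00832% for Myh3.

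The 250 bases before the RefSeq starts (GRCm38.p6) of Myh3 and Myh8, the 2 high genes of the row, are shown because their levels differed 3.61-fold. Capitals mark matches to TATAAA, to the MEF2 motif or to the CArG box on either strand.
Myh3, chr11:67078050-67078299, plus strand: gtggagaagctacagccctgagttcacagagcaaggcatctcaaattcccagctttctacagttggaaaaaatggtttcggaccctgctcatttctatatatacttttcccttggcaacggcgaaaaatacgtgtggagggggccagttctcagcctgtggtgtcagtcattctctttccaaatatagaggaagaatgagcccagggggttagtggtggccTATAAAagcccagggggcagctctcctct
Myh8, chr11:67276874-67277123, plus strand: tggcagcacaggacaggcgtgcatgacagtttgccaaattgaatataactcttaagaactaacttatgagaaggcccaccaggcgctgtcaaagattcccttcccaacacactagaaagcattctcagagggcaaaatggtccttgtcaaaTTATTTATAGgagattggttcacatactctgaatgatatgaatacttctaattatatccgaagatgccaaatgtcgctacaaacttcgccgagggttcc
The Myh3 window holds TATAAA with its first base at -29 from the start. In the Myh8 window a MEF2 motif begins at -99 and a TATAAA on the opposite strand, at -96, lies inside it.

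Among the essential light chains, which clasp the neck of the myosin head, the fast skeletal Myl1 led. Myl4, the embryonic and atrial form, had 103 TPM in replicate 1 and 109 TPM in replicate 2, and Myl1 had 319 and 327 TPM. Myl4 over Myl1 was -1.60 on the log2 scale (combined SD 0.09, 3.04-fold lower), past the spread, and Myl4 held 24.2% and 24.8% of the family sum. Transcripts with a retained intron held 27.2% and 24.9% of Myl4 by TPM. Myl6b, a light chain of slow muscle and non-muscle tissue, had 1.5 and 1.83 TPM, and the slow and ventricular Myl3 had 2.85 and 3.61 TPM. Myl6b over Myl3 was -0.91 on the log2 scale (combined SD 0.42), which is close to the limit of the rule and not past it with 1 TPM added in place of 0.1, or by expected counts, with -0.66 in each case. The exons of Myl3 share 95 bases with the opposite-strand gene Pth1r, which had 73.8 and 78.5 TPM. How strand was used in counting is not given in the sources used here, so reads of these 2 genes may have been mixed.

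The regulatory light chains, which carry the phosphorylation site that tunes myosin, consisted almost entirely of one gene. Mylpf, the fast skeletal form, had 269 and 274 TPM, 99.59% and 99.52% of the family. The slow and ventricular Myl2 had 0.920 and 0.660 TPM from 9 and 7 counts. Both values lay below the deposited credibility intervals of the gene, 1.49 to 4.43 TPM in replicate 1 and 1.05 to 3.26 TPM in replicate 2, so whether Myl2 reached 1 TPM depends on the estimate used. The atrial Myl7 had 0.200 and 0.660 TPM from 2 and 9 counts. Mylpf was past the spread over both, and Myl2 over Myl7 was not, with a mean log2 ratio of 0.88 (combined SD 1.25), but by posterior mean TPM it was, with 2.16.

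Myl1 makes a long and a short light chain from separate starts, and the transcript tables split them. In the deposited transcript table, Myl1-202, which codes for the short form of 150 residues (MLC3f), had 205 and 194 TPM, 64.3% and 59.5% of the gene by the deposited isoform percentage (IsoPct). Myl1-201, the long form of 188 residues (MLC1f) from the upstream start, had 104.8 and 123 TPM, 32.8% and 37.7%. The short form was higher in both libraries. Each form carries its own small exon before the shared ones, and these are shown in capitals with 15 bases of each transcript on either side, from GENCODE M21 on GRCm38, minus strand.
Myl1-201, 28-nt exon, chr1:66934246-66934273: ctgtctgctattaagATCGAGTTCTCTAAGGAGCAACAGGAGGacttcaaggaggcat
Myl1-202, 25-nt exon, chr1:66934518-66934542: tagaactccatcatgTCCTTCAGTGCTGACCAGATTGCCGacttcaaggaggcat
Both run into the same next exon. Among coding transcripts that span the site, 33.7% and 38.6% by TPM held the 28-nt exon and 66.3% and 61.4% the 25-nt exon in replicates 1 and 2. These splits come from a model that shares out reads between transcripts, and from TPM, where a short transcript weighs more per read. By expected counts Myl1-202 held 57.3% and 52.1% of the gene.

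Striated muscle actin, the thin filament itself, was the most abundant product. Actc1, the cardiac and embryonic form at chr2:114047282-114053548 on the minus strand, had 692 and 686 TPM, and Acta1, the adult skeletal form at chr8:123891769-123894751 on the minus strand, had 329 and 341 TPM. The shares of Actc1 were 67.8% and 66.8% of the pair. Each of these 2 genes alone held more than the 8 heavy chains together, which summed to 105.05 and 125 TPM. The deposited TPM of Actc1 and Acta1 lay outside their own deposited credibility intervals in both libraries, for Actc1 at 692 TPM against an interval of 664 to 683 TPM in replicate 1. This was so for 7 of the 52 genes in at least 1 library, the others being Myh3, Actn2, Myoz3, Myl2 and Myh6. For Myoz3 it follows from a TPM of 0, because its deposited intervals start just above 0. For Myh6 the TPM of 0.320 and 0.350 lay below the lower ends of its intervals, 0.418 and 0.447 TPM.

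The upstream windows of the 2 actin genes are shown with the same marking, because the pair leads the list and both windows hold the CArG box, the site of serum response factor.
Actc1, chr2:114052876-114053125, minus strand: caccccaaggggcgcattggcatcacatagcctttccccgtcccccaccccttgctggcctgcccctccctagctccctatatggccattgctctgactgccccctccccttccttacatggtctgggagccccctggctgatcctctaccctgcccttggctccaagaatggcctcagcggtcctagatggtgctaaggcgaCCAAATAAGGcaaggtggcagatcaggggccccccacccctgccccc
Acta1, chr8:123894776-123895025, minus strand: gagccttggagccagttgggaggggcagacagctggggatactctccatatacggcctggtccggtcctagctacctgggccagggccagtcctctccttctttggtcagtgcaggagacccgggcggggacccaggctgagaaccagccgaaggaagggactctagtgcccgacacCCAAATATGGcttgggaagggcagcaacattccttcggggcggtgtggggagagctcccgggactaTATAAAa
The CArG box begins at -47 from the RefSeq start in Actc1 and at -73 in Acta1, and TATAAA begins at -7 in Acta1 and was not matched in the Actc1 window. The GENCODE M21 starts differ from these RefSeq starts. For Acta1 the GENCODE start, 123894751, lies downstream of the RefSeq start. For Actc1 the outer GENCODE start is 114053548, so the window shown lies within the GENCODE span of the gene. That outer start belongs to Actc1-202, which held 0.04% and 0.03% of the gene by IsoPct. Actc1-201, with 99.96% and 99.97%, begins after the first 10.5% of that span. Most of the window lies upstream of the start of Actc1-201. The distances hold for the RefSeq starts only. Over the 42 of the 52 genes with an entry, 9 of 51 windows of 250 bases held a CArG box (17.6%), beside 1.47% of the 32851 windows of all genes. The MEF2 motif was in 8 of 51 (15.7%) beside 2.92%, the E-box CANNTG in 42 of 51 (82.4%) beside 66.2%, and TATAAA in 10 of 51 (19.6%) beside 12.4%, on either strand. A match describes letters in the window only.

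The alpha-actinins cross-link actin at the Z-disc. Actn2, the form of all striated muscle, had 111 and 115 TPM, and Actn3, the form of fast fibres, had 12.6 and 11.9 TPM. Actn2 over Actn3 was 3.20 on the log2 scale (combined SD 0.13, 9.20-fold), past the spread. For Actn3 a transcript with a retained intron, Actn3-202, held 38.5% and 34.9% of the gene by IsoPct, while Actn2-201 held 98.9% and 92.8% of Actn2. By expected counts Actn3-202 held 16.6% and 14.6% of Actn3, and Actn2-201 held 99.5% and 93.4% of Actn2.

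**Figure D2:**
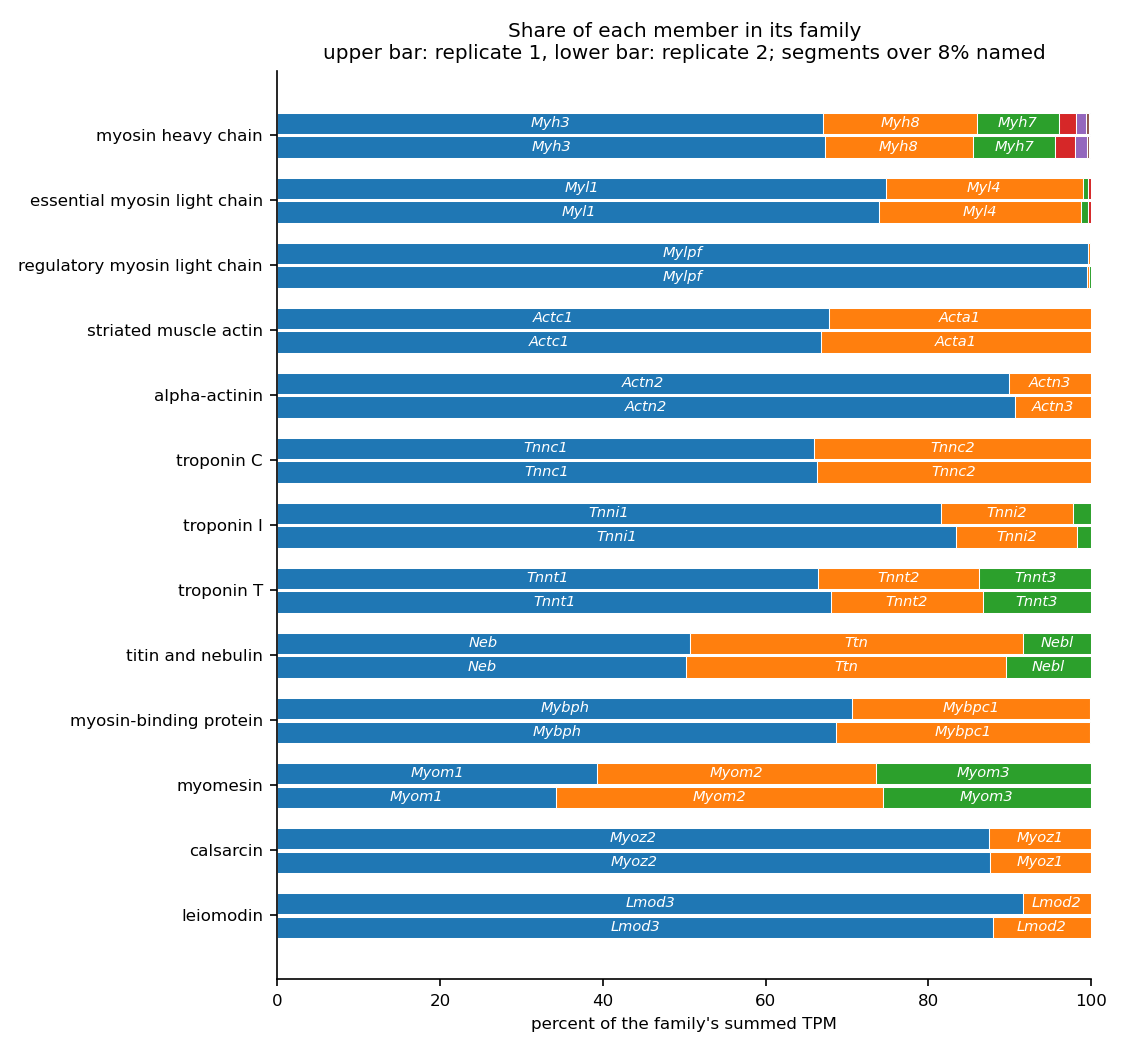
Share of each gene in the summed TPM of its family, in percent, for 13 families, with replicate 1 as the upper bar and replicate 2 as the lower bar of each pair, and segments over 8% named. In 12 of the 13 families 1 gene held over 50% in both libraries, and the myomesins are the family without such a gene. The actins, alpha-actinins, troponin C and leiomodins have 2 genes each, so 1 gene passes 50% in any library unless the 2 are equal.

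The troponin complex switches the thin filament on when calcium binds, and each of its subunits was led by the slow-type gene. Tnnc1, the slow and cardiac calcium-binding subunit at chr14:31208312-31211729 on the plus strand, had 313 and 310 TPM, and the fast Tnnc2 had 162 and 158 TPM. Tnnc1 over Tnnc2 was 0.96 on the log2 scale (combined SD 0.08, 1.95-fold). Tnnc2 shares 592 exon bases with the opposite-strand gene Ube2c, a cell cycle gene at 373 and 359 TPM, so its level is uncertain for the reason given for Myl3. The inhibitory subunit showed a wider gap. Tnni1, the slow form, had 198 and 203 TPM, the fast Tnni2 had 39.4 and 36.4 TPM, and the cardiac Tnni3 had 5.44 and 4.07 TPM. Transcripts with a retained intron held 54.9% and 54.8% of Tnni3 by TPM. Its exons share 86 bases with Dnaaf3 on the same strand, which had 2.75 and 2.51 TPM. Tnni1 over Tnni2 was 2.40 on the log2 scale (combined SD 0.12, 5.28-fold; 2.99 by expected counts, 7.93-fold) and Tnni2 over Tnni3 was 2.98 (combined SD 0.26).

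Troponin T, which ties the complex to tropomyosin, had a different order. Tnnt1, the slow form, had 247 and 257 TPM, 66.4% and 68.0% of the family. Tnnt2, the cardiac and embryonic form, had 73.7 and 70.7 TPM, and Tnnt3, the fast form, had 51.0 and 50.2 TPM. Tnnt2 over Tnnt3 was 0.51 on the log2 scale (combined SD 0.10, 1.43-fold) and Tnnt2 over Tnnt1 was -1.80 (combined SD 0.09), each past the spread. By expected counts Tnnt2 over Tnnt3 was 0.84, a larger ratio, but not past the spread of that scale. By TPM the cardiac form was second in troponin T but last in troponin I, where Tnni3 held 2.24% and 1.67%.

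These genes sit in pairs on the chromosomes, 1 troponin I gene beside 1 troponin T gene. Tnni1 lies 25.4 kb from Tnnt2 on chromosome 1, Tnni2 lies 54.4 kb from Tnnt3 on chromosome 7, and Tnni3 lies 1.92 kb from Tnnt1 on chromosome 7. The closest pair held the most unlike levels, 5.44 and 4.07 TPM for Tnni3 beside 247 and 257 TPM for Tnnt1. Tnni2 and Tnnt3, both fast-type, were at 39.4 and 36.4 TPM and at 51.0 and 50.2 TPM.

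Troponin T genes are known for fetal exons, and the transcript estimates gave values for several. The exons below are shown in capitals with 15 coding bases on either side, from GENCODE M21 on GRCm38.
Tnnt2, 30-nt exon, chr1:135843785-135843814, plus strand: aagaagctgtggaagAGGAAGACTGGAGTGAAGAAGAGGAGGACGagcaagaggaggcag
Tnnt3, first 41-nt exon, chr7:142513665-142513705, plus strand: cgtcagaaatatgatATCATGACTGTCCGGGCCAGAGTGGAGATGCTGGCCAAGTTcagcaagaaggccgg
Tnnt3, second 41-nt exon, chr7:142514326-142514366, plus strand: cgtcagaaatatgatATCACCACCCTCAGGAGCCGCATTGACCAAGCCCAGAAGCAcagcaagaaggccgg
Tnnt1, 33-nt exon, chr7:4513581-4513613, minus strand: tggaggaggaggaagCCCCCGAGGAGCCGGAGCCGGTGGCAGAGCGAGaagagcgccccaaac
In Tnnt2 the 30-nt exon, the embryonic exon of cardiac troponin T, was held by 96.6% and 98.6% of the coding transcripts that either hold it or skip it, by TPM. In Tnnt3 the 41-nt exons are used one at a time, and the second, known as the fetal type, took 74.0% and 69.9% against 26.0% and 30.1% for the first, known as the adult type. The 2 exons are identical at 18 of 41 positions (43.9%) and are followed by the same bases. A 39-nt exon of Tnnt3 at chr7:142507750-142507788 was held by 88.9% and 84.5%. In Tnnt1 the 33-nt exon of the acidic amino-terminal region was held by 60.6% and 65.9%. Each of these values differed by under 6 percentage points between the libraries.

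No single transcript passed 50% in Tnnt1 or Tnnt3, which have 13 and 26 listed transcripts. Tnnt1-201 led Tnnt1 with 28.8% and 32.96%, and Tnnt3-202, which holds the second 41-nt exon, led Tnnt3 with 24.3% and 24.1%. Among the 25 genes at 10 TPM or more with at least 2 listed transcripts the same transcript led in both libraries for all 25, and it held over 50% in both for 21, beside 71% of the 6883 genes of the tables that met the same conditions.

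Titin and nebulin, the giant proteins that set the length of thick and thin filaments, needed a closer look at their transcripts. By gene level Ttn had 68.1 and 65.2 TPM and Neb had 84.3 and 83.3 TPM. Ttn over Neb was -0.33 on the log2 scale (combined SD 0.09), past the spread. Short transcripts made up most of both values. In Ttn the leading transcript was Ttn-215, 2159 nt from the first 6.26% of the gene's span, with 41.5 and 41.3 TPM (60.9% and 63.3% by IsoPct), while it held 14.6% and 15.02% of the gene's counts. Transcripts of at least 50% of the longest length, 106824 nt, held 4.40 and 4.31 TPM, which is 6.46% and 6.61% of the TPM but 69.3% and 69.1% of the counts. The leading ones were Ttn-201 with 26886 residues at 2.15 and 2.36 TPM and Ttn-205 with 33467 residues at 2.07 and 1.84 TPM.

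Nebulin gave the same picture. Neb-204, a transcript of 1000 nt with no coding sequence, between 17.7% and 24.3% of the gene's span from its 5′ end, held 66.2 and 67.2 TPM (78.6% and 80.6%). Transcripts of at least 50% of the longest length held 4.53 and 4.82 TPM, 5.37% and 5.78% of the TPM and 52.3% and 54.9% of the counts. From long transcripts alone, Ttn over Neb was -0.10 on the log2 scale and no longer past the spread, and by expected counts without division by length it was 1.60. The order of titin and nebulin therefore depends on which transcripts are counted.

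The remaining gene of this group, Nebl, codes for nebulette and for a short form without most nebulin repeats. Its gene level was 14.0 and 17.3 TPM, below that of Neb, with Neb over Nebl at 2.42 on the log2 scale (combined SD 0.15), at 1.68 by expected counts, and at -1.71 when Neb alone was read from its long transcripts. With both genes read from long transcripts it was -0.46 and not past the spread. The long transcripts of Nebl held 5.46 and 7.61 TPM and were almost all Nebl-201, which codes for the short form. That ratio therefore does not set Neb beside full-length nebulette. Nebl-201, which codes for 270 residues, held 5.46 and 7.55 TPM (39.03% and 43.7%), and the non-coding Nebl-205 held 53.9% and 48.2%. The internal exons of the repeat region that were measured were held by 2.40% to 7.61% of the coding transcripts, so the coding RNA of Nebl was almost all of the short form.

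**Figure D3:**
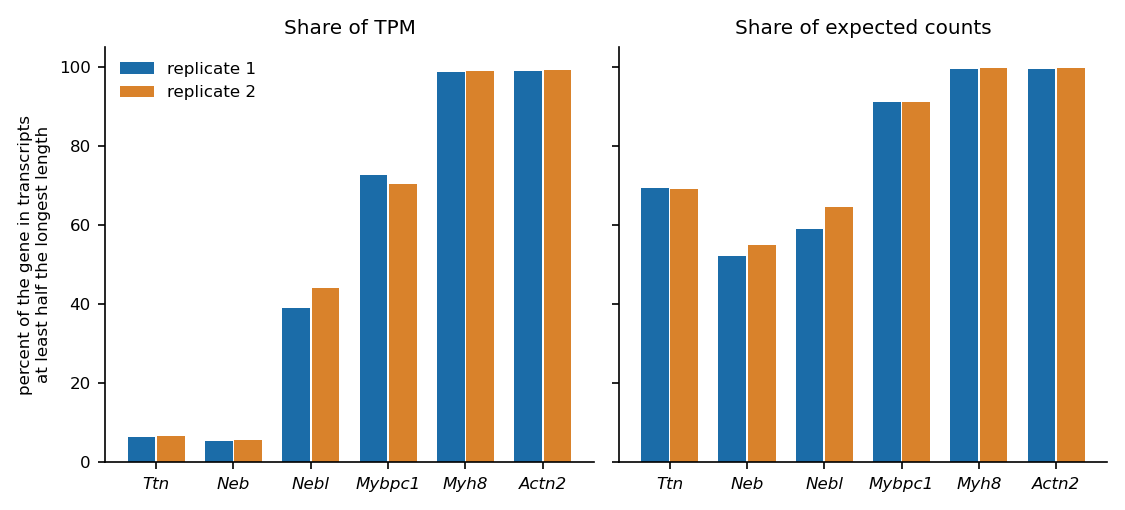
Percent of each gene's TPM (left) and of its expected counts (right) that fell to transcripts of at least 50% of the gene's longest transcript length, in 6 genes, with replicate 1 in blue and replicate 2 in orange. Ttn and Neb stand between 5.37% and 6.61% by TPM and between 52.3% and 69.3% by counts, while Myh8 and Actn2 are above 98% on both scales.

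Myosin-binding proteins, which brace the thick filament, were led, by TPM, by a less studied member. Mybph, protein H, had 74.5 and 77.6 TPM, and the slow type Mybpc1 had 30.9 and 35.3 TPM. Mybph over Mybpc1 was 1.20 on the log2 scale (combined SD 0.12, 2.30-fold), past the spread. By expected counts it was 0.43 (1.34-fold) and not past the spread of that scale. Mybph shares 1162 exon bases with the opposite-strand Adora1, which was itself low at 2.30 and 2.62 TPM. The fast type Mybpc2 had 0.0700 and 0.0800 TPM from 5 and 8 counts, and the cardiac type Mybpc3 had 0.0200 TPM in each library from 2 counts each. These last 2 were not past the spread from each other. Mybpc1 over Mybpc2 was 7.57 on the log2 scale (combined SD 0.76), 4.98 with 1 TPM added and 8.61 with 0.01 TPM added. Its size therefore rests on the added value, and it was past the spread with each. Within Mybpc1 a 42-nt exon at chr10:88582007-88582048 was held by 66.0% and 76.6% and a 54-nt exon at chr10:88537466-88537519 by 6.73% and 6.05% of coding transcripts.

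The myomesins, which bundle thick filaments at the M-band, were the family with no leader. Myom1 had 5.92 and 5.99 TPM, Myom2, known from fast fibres, had 5.16 and 7.03 TPM, and Myom3 had 3.98 and 4.48 TPM. None of their 3 pairs was past the spread, and Myom1 led in replicate 1 with 39.3% and Myom2 in replicate 2 with 40.2%. Myom1 shares 207 exon bases with the opposite-strand Myl12a at 591 and 600 TPM. The 294-nt exon of Myom1 that codes for the elastic EH segment of embryonic heart, at chr17:71082203-71082496, was held by 19.2% of its coding transcripts in replicate 1 and 37.2% in replicate 2, the widest gap between libraries among the exons drawn in the plot of exon inclusion. In Myom3 a transcript with a retained intron, Myom3-203, held 52.3% and 42.5% by IsoPct, and 32.9% and 25.9% of the gene's expected counts.

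**Figure D4:**
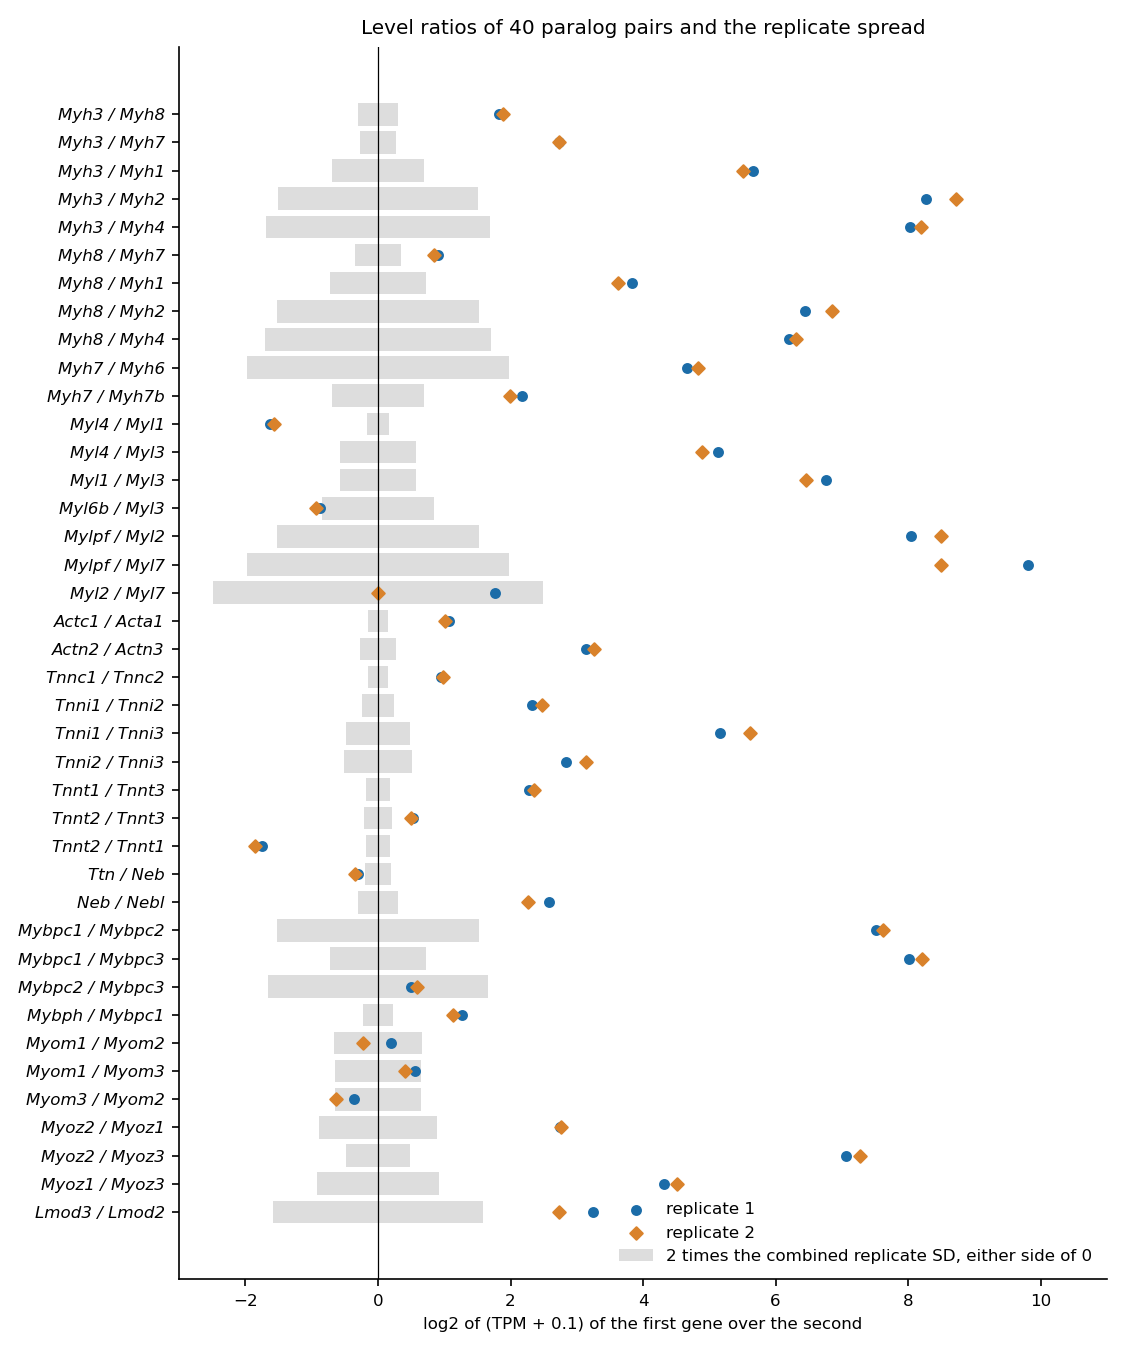
Log2 ratio of TPM + 0.1 of the first gene over the second for 40 pairs, with circles for replicate 1 and diamonds for replicate 2, and grey bars that reach 2 times the combined replicate SD either side of 0. Points lie outside the bars for 35 pairs by their mean, and the 3 myomesin pairs, Myl2 / Myl7 and Mybpc2 / Mybpc3 do not.

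The calsarcins and leiomodins each had 1 high gene. Among the calsarcins, which tether calcineurin at the Z-disc, Myoz2, the slow and cardiac form, had 13.2 and 15.4 TPM and the fast Myoz1 had 1.89 and 2.18 TPM. Myoz2 over Myoz1 was 2.75 on the log2 scale (combined SD 0.44, 6.75-fold). Myoz3 had 0 counts in both libraries, which allows up to 3 counts in each, or 0.0940 and 0.0695 CPM, for counting error only. Of the leiomodins, which seed actin filaments, the skeletal Lmod3 had 6.43 and 6.34 TPM and the cardiac Lmod2 had 0.590 and 0.870 TPM. Lmod3 over Lmod2 was 2.99 on the log2 scale (combined SD 0.79, 7.93-fold), and 2.10 (4.28-fold) with 1 TPM added, past the spread on both.

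The Z-disc and assembly genes outside these families were all detected. Des, the intermediate filament desmin, had 43.1 and 46.6 TPM, and the small heat shock chaperone gene Cryab had 42.2 and 40.6 TPM. Pdlim3, an alpha-actinin-binding LIM protein, had 37.97 and 43.1 TPM, and Csrp3, muscle LIM protein, had 22.5 and 22.6 TPM. Cryab shares 252 exon bases with the opposite-strand Hspb2, which had 26.1 and 27.6 TPM. The genes of sarcomere assembly followed. Klhl41 had 14.6 and 18.3 TPM, the myosin chaperone gene Unc45b had 15.1 and 16.6 TPM, and Smyd1, the lysine methyltransferase of muscle, had 7.19 and 9.75 TPM. The titin cap gene Tcap had 9.38 and 10.7 TPM and Ldb3, the Z-disc protein ZASP or cypher, had 6.0 and 6.43 TPM. Ckm, the creatine kinase of mature muscle, was lowest of the 10 at 2.92 and 2.25 TPM.

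Splice forms of Ldb3 and Smyd1 could be read as well. Ldb3-205 with 684 residues, which holds the exons of the skeletal type, had 68.8% and 65.4% of the gene by IsoPct. Ldb3-203 with 327 residues, which holds the 359-nt exon of the cardiac type at chr14:34576986-34577344, had 31.2% and 34.6%. By expected counts Ldb3-205 held 87.5% and 85.7%, and Ldb3-203 held 12.5% and 14.3%, from 59.5 and 94.0 counts. Both Ldb3 and Smyd1 were below the 10 TPM asked of genes in the count of leading transcripts. In Smyd1 a 39-nt exon was held by 63.1% and 66.3% of coding transcripts, and it separates the protein forms of 490 and 477 residues. It is shown in capitals with its flanks.
Smyd1, 39-nt exon, chr6:71235343-71235381, minus strand: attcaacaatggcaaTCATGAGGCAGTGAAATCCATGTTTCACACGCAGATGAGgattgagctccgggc

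**Figure D5:**
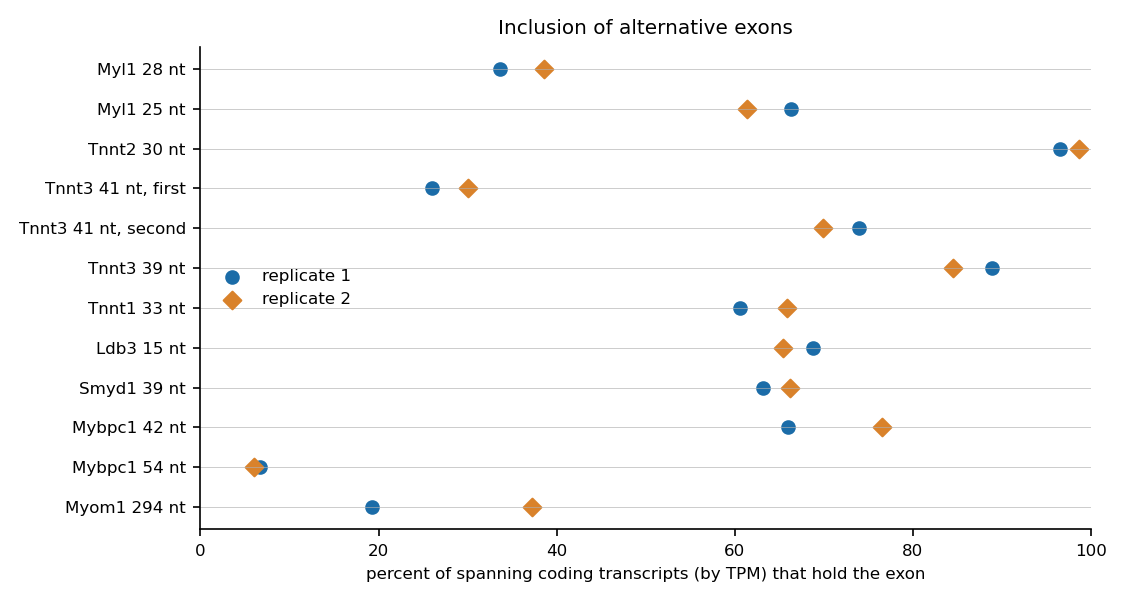
Percent of the coding transcripts spanning each exon that hold it, by TPM, for 12 alternative exons of 8 genes, with circles for replicate 1 and diamonds for replicate 2. The embryonic exon of Tnnt2 is at 96.6% and 98.6%, the second 41-nt exon of Tnnt3 at 74.0% and 69.9%, and the Myom1 exon at 19.2% and 37.2%.

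Other genes of the sarcomere, Z-disc and costamere, from a separate list of 40 names, were detected for 32 of the 39 that were measured, with a median of 6.37 TPM. The highest were Pdlim7 at 150 and 145 TPM, Palld at 114 and 115 TPM and Obsl1 at 71.4 and 70.6 TPM, 3 genes that are also expressed outside muscle. Xirp2, an actin-binding protein of muscle and heart cell junctions, was lowest, with 0 TPM in both libraries. Together the 39 genes summed to 605 and 617 TPM, beside 3547 and 3624 TPM for the 52 sarcomere genes.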

How the data were processed

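Each library came with gene and transcript tables made by the authors. The deposited expected counts are model estimates in which reads that match several transcripts are shared out. TPM and FPKM are the authors' length-scaled values per the file headers, IsoPct in the deposited tables is the percent of gene TPM held by a transcript, and credibility bounds of TPM (treated as a signal) come from the deposited tables. Per the labels the build was mm10, with GENCODE M4 named in the deposited text files. For the aligner, the quantifier and strand use, the answer is not given in the sources used here. Rows with bare-number identifiers (0.000226% and 0.000148% of counts) and spike-ins were left out of results.

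Symbols matched 42462 of 43346 genes. Positions, transcript types and exons were read from GENCODE M21, a later release for the assembly, which held 260 of the 263 transcripts of the 52 genes, and 231 had the same length. Transcripts were used for exon inclusion where lengths differed by at most 100 nt. Promoters came from RefSeq (GRCm38.p6). No partner entry was matched for 1 of 40 names.

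Expected counts were rounded for edgeR 4.0.16 in R 4.3.3 for TMM scaling and a common dispersion with an intercept-only design, and DESeq2 1.42.0 gave alternative size factors. Other values came from Python 3.11.15. Library ratios used scaled counts + 0.5, and pair ratios TPM + 0.1. Inclusion is the TPM of coding transcripts with an exon over those with or skipping it. The dispersion, fold and spread steps were tested on simulated data. All 52 genes are named, and of other lists the 3 highest and the lowest, with further markers chosen after their values were seen. The genes, lists and pairs were chosen with earlier results of these data known.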

Additional observations from a re-analysis of the deposited data

How the results depend on the processing

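No paired analysis was possible because the labels give 1 group. The 43 detected sarcomere genes became 40 to 45 at 2 and 0.5 TPM, 41 by FPKM and 44 by posterior mean TPM, and stayed 43 with either library alone. Of 13 families, 12 had 1 gene above 50% by expected counts, with either library alone and with titin and nebulin alone read from long transcripts, and 11 by posterior mean TPM. The count was also 11 when Nebl too was read from long transcripts, where it held 37.9% and 45.5% of the titin and nebulin group. The leader of that group changed with the setting. It was Neb by gene TPM (50.7% and 50.3%) and Ttn by expected counts (70.7% and 68.6%). With titin and nebulin alone read from long transcripts it was Nebl (61.0% and 65.4%). Families of 2 genes have a gene above 50% in any setting unless the 2 are equal. The 35 pairs past the spread became 23 when both genes had to reach 1 TPM, because fewer pairs were left, and 35 with either library alone, the spread being that of both. Expected counts left 31, with calls lost for Myh8 over Myh7 (0.87), Myl6b over Myl3 (-0.66), Tnnt2 over Tnnt3 (0.84) and Mybph over Mybpc1 (0.43), and Ttn over Neb turned to 1.60 (log2 ratios). These counts were not scaled for library size, so the spread of that scale includes the depth difference between the libraries. The part of depth in the lost calls, and the cause of the turn of Ttn over Neb, were not tested. Pseudocounts of 1 and 0.01 TPM left 34 and 35, and posterior mean TPM 36. Long transcripts, alternatives chosen after the data were seen, left 34 with titin and nebulin alone and 33 with Nebl too, and turned Neb over Nebl to -1.71 and -0.46. In all 21 of 40 ratios moved by over 1.5-fold under some setting, 16 by expected counts and 13 with 1 TPM added. Library ratios over 2-fold numbered 2 with no count minimum (Myl7 added) and 0 at a mean of 100 counts. Leading transcripts numbered 21 of 25 genes and became 22 of 25 with either library alone, 27 of 34 at 1 TPM and 14 of 25 at a share of 75%. Transcript splits rest on shared reads, genes under 1 TPM on few counts, and 2 libraries limit all precision.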
